A study of Mus musculus with 2 samples.

Results

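Galectin-1 (Lgals1), galectin-3 (Lgals3), the S100 genes S100a4, S100a6, S100a10 and S100a11, annexin A2 (Anxa2), vimentin (Vim) and cysteine-rich protein 1 (Crip1) were followed across the immune cells of the lymph node after heart transplantation. They are 9 of 27998 entries of the gene list and were picked by symbol because earlier results of these same 2 libraries were known, so every library difference below is a description and was not tested. Immune cells were taken from lymph nodes of BALB/c mice of 6-8 weeks that carried a heart from a C57BL/6 donor (allogeneic) or from a BALB/c donor (syngeneic). Each group is 1 droplet-based single-cell 3′ library, and the number of mice behind it and the day after grafting are not given in the sources used here. An allogeneic heart carries antigens that its recipient lacks and a syngeneic heart does not. Levels are unique molecular identifiers (UMIs) summed over the cells of a class and given as CPM, the UMIs of the gene per 1000000 UMIs of that class. Intervals are exact at 95% and cover counting error only, with each UMI taken as independent, and not the difference between cells, mice or libraries.

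Galectins are lectins that bind galactose-bearing glycans on surface proteins such as CD45. Galectin-1 is made by regulatory and effector T cells and can restrain activated T cells, and galectin-3 is abundant in macrophages. S100 proteins are small calcium-binding proteins, several of which pair with annexins at the inner face of the membrane, and with vimentin and Crip1 they are commonly high in memory and tissue-homing lymphocytes and in myeloid cells, and low in naive cells.

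The 4 S100 genes lie on mouse chromosome 3 in neighbouring pairs. The upstream sequences of S100a4, S100a6 and S100a11 are shown because neighbours had, as measured, unlike levels and unlike library ratios in some classes of cells. In others the ratios of S100a10 and S100a11 were close, with log2 values (allogeneic over syngeneic) of -0.95 and -0.85 in CD4 T cells. The sequence of Lgals3 is shown because its ratio ran opposite to that of Lgals1 in most classes. Each line is the 250 bases before the RefSeq start, plus strand, GRCm38.p6, 5′ to 3′, and capitals mark matches on either strand to the TATA box (letters TATAAA), the GC box (letters GGGCGG), the CACCC box (by its name), the AP-1 motif (letters TGANTCA) or the STAT motif (letters TTCNNNGAA). A GC box can overlap a CACCC box, and an AP-1 motif can run into one.
S100a4, chr3:90603520-90603769: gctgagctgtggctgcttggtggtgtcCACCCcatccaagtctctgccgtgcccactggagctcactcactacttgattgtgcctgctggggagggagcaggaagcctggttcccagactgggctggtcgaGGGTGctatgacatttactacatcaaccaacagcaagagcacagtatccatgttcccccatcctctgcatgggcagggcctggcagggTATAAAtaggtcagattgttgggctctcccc
S100a6, chr3:90612644-90612893: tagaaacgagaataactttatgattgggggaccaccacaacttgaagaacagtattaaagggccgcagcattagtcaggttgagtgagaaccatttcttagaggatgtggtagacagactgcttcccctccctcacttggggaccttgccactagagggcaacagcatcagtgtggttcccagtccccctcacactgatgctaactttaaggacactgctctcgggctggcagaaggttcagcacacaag
S100a11, chr3:93520246-93520495: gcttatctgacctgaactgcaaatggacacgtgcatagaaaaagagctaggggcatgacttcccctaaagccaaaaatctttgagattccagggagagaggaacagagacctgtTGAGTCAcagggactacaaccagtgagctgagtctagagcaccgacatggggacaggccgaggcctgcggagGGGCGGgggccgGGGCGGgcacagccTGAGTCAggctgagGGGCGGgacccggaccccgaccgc
Lgals3, chr14:47373610-47373859: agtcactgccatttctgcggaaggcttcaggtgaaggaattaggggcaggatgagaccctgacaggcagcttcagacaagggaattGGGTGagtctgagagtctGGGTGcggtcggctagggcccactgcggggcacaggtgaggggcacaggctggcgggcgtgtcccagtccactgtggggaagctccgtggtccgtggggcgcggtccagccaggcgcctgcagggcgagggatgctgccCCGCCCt
The S100a4 window holds a TATA box that starts 31 bases before the RefSeq start (position -31) and 2 CACCC boxes, the S100a6 window none of the 5 motifs, the S100a11 window 3 GC boxes and 2 AP-1 matches, and the Lgals3 window 1 GC box and 2 CACCC boxes. Of 32536 RefSeq promoter windows of the same length, 12.3% held a TATA box, 33.0% a GC box, 52.1% a CACCC box, 6.73% an AP-1 motif and 7.04% a STAT motif, counting both strands. A match is a stretch of letters and not a measured binding site. Windows were matched for 7 of the 9 genes, all but Lgals1 and S100a10. By the RefSeq coordinates 6.849 kb separate S100a4 (chr3:90603770-90606045) from S100a6 (chr3:90612894-90614414), with S100a5 between them, and 28.829 kb separate S100a11 (chr3:93520496-93526288) from S100a10 (chr3:93555117-93564645). The other members lie apart, at chr15:78926725-78930465 (Lgals1), chr14:47373860-47386167 (Lgals3), chr9:69453683-69491792 (Anxa2), chr2:13574311-13582826 (Vim) and chr12:113152012-113153879 (Crip1).

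The libraries differed in ways that touch these genes. The allogeneic library held 3500 barcodes and 8415043 UMIs, the syngeneic 7967 barcodes and 46486632 UMIs, and their lowest barcodes had 150 and 3447 UMIs. After filtering, 2106 and 7957 cells remained with medians of 3147 and 4917 UMIs. Ptprc, which encodes CD45 and marks immune cells, had a UMI in 65.6% and 96.6% of them, and haemoglobin genes took 9.11% and 0.114% of their UMIs. Barcodes with UMIs of both T and B cells, which the marker gates leave out, were 24 (1.14%) and 1175 (14.8%). The libraries shared 66 barcode sequences, 26 of which were kept in the allogeneic library. RNA of S100a8 and S100a9, the main calcium-binding proteins of neutrophils, was spread through the allogeneic library. These genes stood at 588 and 350 CPM in its CD4 T cells and at 2.61 and 4.02 CPM in syngeneic CD4 T cells. In B cells they stood at 629 and 393 against 1.97 and 2.47 CPM. The RNA that came with them is called neutrophil RNA below, by these genes alone, and its source was not tested.

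Marker gates gave 7 classes, with allogeneic and syngeneic cell numbers of 258 and 1028 CD4 T cells, 295 and 1845 memory-like CD8 T cells, 170 and 520 other CD8 T cells, 90 and 126 Foxp3+ T cells, 43 and 97 type 17 T cells, 310 and 800 B cells, and 79 and 42 myeloid cells. The gated cells were 59.1% and 56.0% of kept cells. Lineage markers fitted the names of the CD4 T, CD8 T and B classes. Cd3d had a UMI in at least 95.3% of CD4 and CD8 T cells and Cd79a in 98.7% and 99.4% of B cells. In B cells Ms4a1 stood at 607 against 1398 CPM (67.7% against 97.9% of cells, allogeneic against syngeneic). In the Foxp3+ gate Ctla4 stood at 483 against 99.1 CPM (65.6% against 27.8%). Il2ra ran the other way there, at 90.1 against 165 CPM (21.1% against 43.7%), as did Ikzf2, at 387 against 592 CPM. What these differences add to the member ratios was not tested. The memory-like CD8 gate was broad, since Nkg7 had a UMI in 97.3% and 97.8% of its cells and the chemokine Ccl5 in 28.8% and 40.5%. The type 17 gate held unlike cells in the 2 libraries: Il17a, the cytokine that gives the class its name, was seen in 37.2% of the allogeneic and 1.03% of the syngeneic barcodes, and Cd163l1, a scavenger receptor family gene seen on gamma-delta T cells, in 41.9% and 13.4%. The myeloid gate differed most, with 12 S100a8/S100a9-rich, 30 C1q-positive, 0 dendritic-gene and 37 other cells in the allogeneic library against 0, 0, 9 and 33 in the syngeneic, and medians of 887 and 5367.5 UMIs. Cells of different kinds in a class and different RNA per cell cannot be told apart in these sums.

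Lgals1 was at least 2-fold lower in the allogeneic library in every class. In CD4 T cells it stood at 55.3 CPM in the allogeneic and 266 CPM in the syngeneic library, a log2 ratio (allogeneic over syngeneic) of -2.27 (-2.71 to -1.86). Memory-like CD8 T cells had 33.8 and 205 CPM, a log2 ratio of -2.60 (-3.05 to -2.18). The ratio in memory-like CD8 T cells was the lowest of Lgals1 over the 7 classes. Foxp3+ T cells, whose Ctla4 and Il2ra differed between the libraries, had 177 and 713 CPM, a log2 ratio of -2.01 (-2.42 to -1.62). Type 17 T cells had its highest level in both libraries, 842 and 2597 CPM, with a log2 ratio of -1.63 (-1.85 to -1.41). B cells had 25.9 and 108 CPM, a log2 ratio of -2.07 (-2.77 to -1.44). Thus the lowest syngeneic level, in B cells, lay above the allogeneic levels of CD4 T, CD8 T and B cells alike.

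The share of cells with a Lgals1 UMI moved in the same direction. With each cell thinned to 1000 UMIs it was 3.97% of 252 allogeneic and 14.5% of 1028 syngeneic CD4 T cells (11.2% and 49.2% unthinned), and 1.67% and 6.88% of B cells (5.16% and 29.4% unthinned). In Foxp3+ T cells it was 10% (4.68 to 18.1%) and 22.2% (15.3 to 30.5%), whose intervals overlap, and in type 17 T cells 35.7% and 62.9%. Of the Lgals1 UMIs of Foxp3+ T cells, 4 of the 90 allogeneic cells held 62.7% and 21 of the 126 syngeneic cells 84.9%. The order of the levels was alike in the 2 libraries from type 17 T through myeloid and Foxp3+ to CD4 T cells, and intervals of neighbours overlapped in 3 places in the allogeneic library, all among CD4 T, CD8 T and B cells. The highest class was 32.5-fold above the lowest in the allogeneic and 23.9-fold in the syngeneic library.

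**Figure D1:**
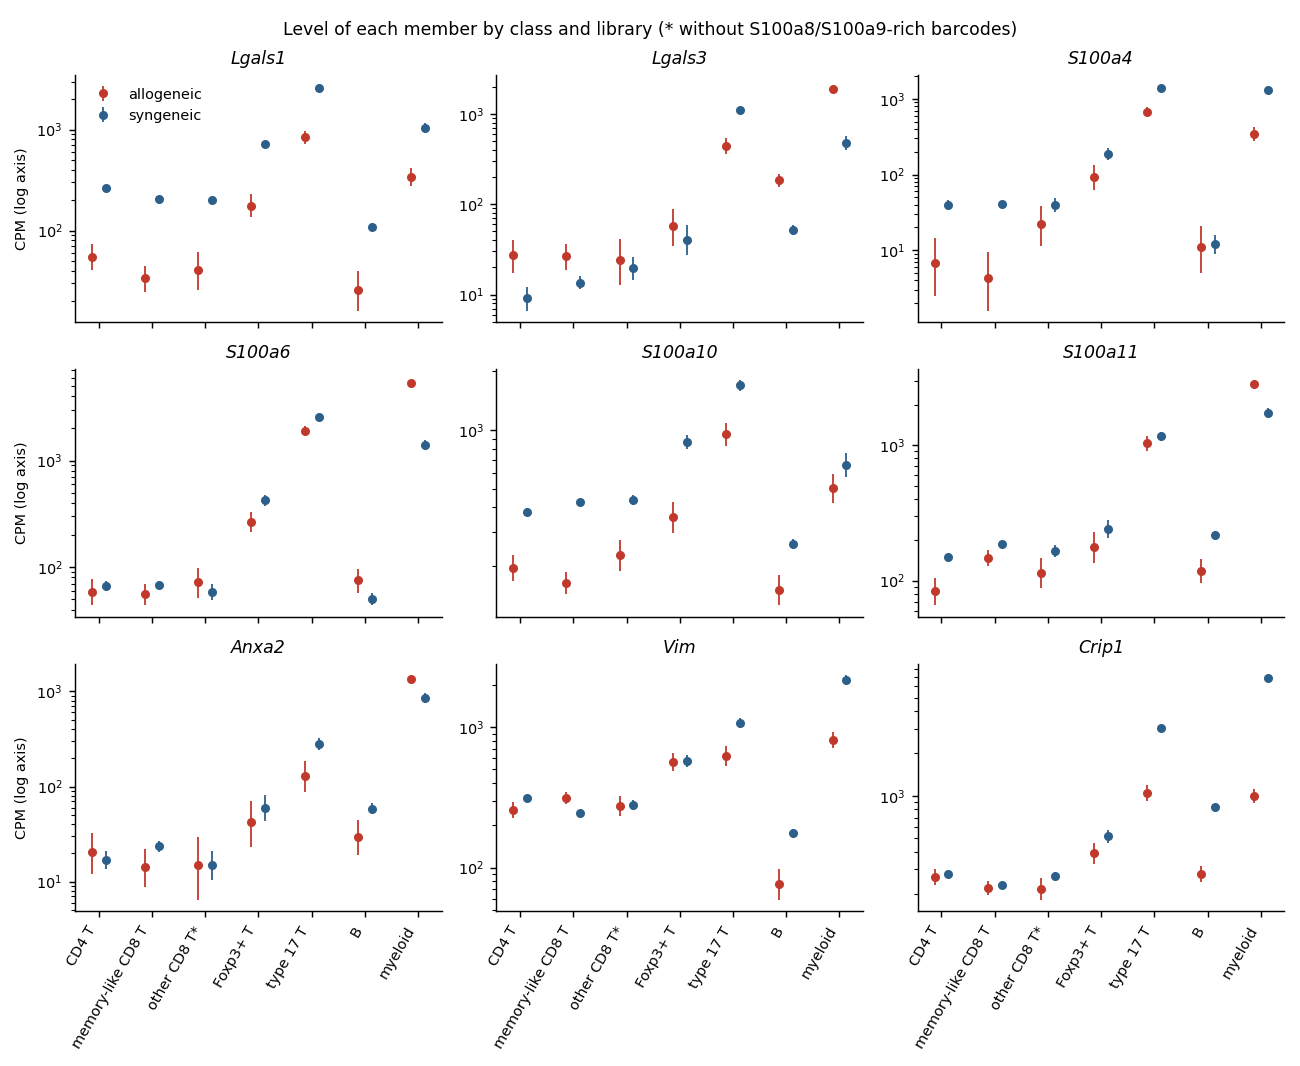
Level of each member (CPM, log axis, with exact Poisson 95% intervals) in 7 classes of the allogeneic (red) and syngeneic (blue) library, with the other CD8 T class drawn without its 2 S100a8/S100a9-rich barcodes. Lgals1 is lower in red in every class, whereas Lgals3 is higher in red in B cells (184 against 52.0 CPM) and lower in red in type 17 T cells (445 against 1103 CPM).

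Lgals3 ran the other way in most classes. B cells had 184 CPM in the allogeneic and 52.0 CPM in the syngeneic library, a log2 ratio of 1.82 (1.51 to 2.13), and the thinned share of B cells with a UMI was 17% against 5.25% (27.7% and 16% unthinned). CD4 T cells had far less, 27.1 and 9.05 CPM from 24 and 45 UMIs, with a log2 ratio of 1.58 (0.80 to 2.33). Memory-like CD8 T cells had 26.6 and 13.5 CPM, a log2 ratio of 0.98 (0.41 to 1.51). In type 17 T cells, the class with most of it in the syngeneic library, Lgals3 was lower in the allogeneic library, at 445 against 1103 CPM (log2 ratio -1.31, -1.62 to -1.01). Foxp3+ T cells had 57 and 40.5 CPM from 48 UMIs in all, under the minimum of 50 UMIs used for calls.

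The neutrophil RNA of the allogeneic library carries Lgals3 as well. Scaled by S100a8 and S100a9, the profile of the 30 S100a8/S100a9-rich allogeneic barcodes would hold 36.7% of the Lgals3 UMIs of allogeneic CD4 T cells, 36.2% of those of memory-like CD8 T cells and 5.91% of those of B cells. With that amount subtracted the log2 ratio was 0.94 in CD4 T cells, 0.36 in memory-like CD8 T cells and 1.74 in B cells. The subtraction rests on the scaling by S100a8 and S100a9 alone, and the part of neutrophil RNA in the B cell difference was not tested. The B cell class also had a T cell component, with T cell genes at 18.1% and 13.1% of their level in the sum of all barcodes. The Lgals3 ratio in B cells stayed between 1.51 and 1.87 under all 13 alternative settings. These include the subtraction of free RNA in both libraries, with which the S100a6 ratio in B cells went from 0.58 to -2.53. The source of the T cell component was not tested. Other CD8 T cells stood at 208 and 19.6 CPM with 2 neutrophil-like barcodes in the allogeneic gate, and at 24.1 and 19.6 CPM without them (log2 ratio 0.30, -0.71 to 1.21).

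Among the S100 genes, S100a4, which binds non-muscle myosin and is a common marker of memory T cells, was lower in the allogeneic library in CD4 and memory-like CD8 T cells. CD4 T cells had 6.77 CPM (6 UMIs) in the allogeneic and 40.2 CPM (200 UMIs) in the syngeneic library, a log2 ratio of -2.57 (-4.03 to -1.42). Memory-like CD8 T cells had 4.31 and 40.9 CPM, a log2 ratio of -3.24 (-4.70 to -2.11). These S100a4 ratios rest on few cells, since 14 of the 1028 syngeneic CD4 T cells held 70% of its 200 UMIs and 20 of the 1845 syngeneic memory-like CD8 T cells held 74.4% of its 429 UMIs. After thinning, a S100a4 UMI was seen in 0.794% (0.0963 to 2.84%) of allogeneic and 2.14% (1.35 to 3.22%) of syngeneic CD4 T cells, and in 0.678% (0.0822 to 2.43%) and 2.44% (1.78 to 3.25%) of memory-like CD8 T cells, shares whose intervals overlap. Type 17 T cells held by far the most among lymphocytes in both libraries, 669 and 1396 CPM (log2 ratio -1.06, -1.32 to -0.81). Foxp3+ T cells had 93.1 and 187 CPM, a log2 ratio of -1.01 (-1.62 to -0.43), with 93.3% of the syngeneic UMIs in 9 of 126 cells. In B cells S100a4 was near the bottom of its range in both libraries, at 11.1 and 12.1 CPM, and the ratio of -0.12 had an interval from -1.34 to 0.92.

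S100a10, which has lost calcium binding and forms a membrane complex with annexin A2, was lower in the allogeneic library in all 7 classes, with log2 ratios from -1.38 in memory-like CD8 T cells to -0.40 in myeloid cells. The levels were 196 and 379 CPM in CD4 T cells (log2 ratio -0.95, -1.18 to -0.72) and 164 and 426 CPM in memory-like CD8 T cells (-1.38, -1.58 to -1.19). Foxp3+ T cells had 357 and 867 CPM (-1.28, -1.57 to -0.99), and type 17 T cells 950 and 1686 CPM (-0.83, -1.04 to -0.62). Its range over classes was narrow, 6.27-fold in the allogeneic and 6.5-fold in the syngeneic library, against 155-fold and 116-fold for S100a4. After thinning, a UMI was found in 15.9% of allogeneic and 30.8% of syngeneic CD4 T cells (43.0% and 75.6% unthinned), and in 15.0% and 22.4% of B cells.

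As measured, S100a6 (calcyclin), which lies near S100a4 with S100a5 between them, did not share its ratio in CD4 and memory-like CD8 T cells. Under the 14 settings of the closing section the S100a6 log2 ratio ran from -2.21 to 0.66 in CD4 T cells. In memory-like CD8 T cells it ran from -3.14 to -0.05. S100a6 was at least 2-fold lower under 2 of these settings in each class. It had 58.7 and 66.3 CPM in CD4 T cells (log2 ratio -0.18, -0.63 to 0.25), 55.4 and 68.5 CPM in memory-like CD8 T cells (-0.31, -0.67 to 0.03) and 75.1 and 50.3 CPM in B cells (0.58, 0.14 to 1.0). These low levels are the ones most touched by neutrophil RNA, which by the same scaling would hold 65.3%, 66.9% and 55.6% of the allogeneic S100a6 UMIs of these classes. That is 38.3 of 58.7 CPM in CD4 T cells and 37.1 of 55.4 CPM in memory-like CD8 T cells. The unlike ratios of S100a6 and S100a4 in these T cells are therefore given as measured only. With neutrophil RNA subtracted the S100a6 ratio in B cells was -0.58. Where S100a6 was high that share was small: 14.3% in Foxp3+ T cells, at 264 and 424 CPM (-0.68, -1.04 to -0.34), and 2.09% in type 17 T cells, at 1908 and 2564 CPM (-0.43, -0.58 to -0.27). S100a11, a partner of annexin A1, had ratios between -0.87 in B cells (118 and 216 CPM) and -0.16 in type 17 T cells (1040 and 1163 CPM) over CD4 T, memory-like CD8 T, Foxp3+ T, type 17 T and B cells. Over these classes neutrophil RNA would hold from 2.0% (type 17 T) to 23.9% (CD4 T) of the allogeneic S100a11 UMIs.

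Anxa2, the calcium-dependent membrane-binding partner of S100a10, was sparse in T cells, with 20.3 and 16.9 CPM in CD4 T cells (log2 ratio 0.27, -0.56 to 1.01) and 14.4 and 23.5 CPM in memory-like CD8 T cells (-0.71, -1.45 to -0.05). Type 17 T cells had 129 and 279 CPM, a log2 ratio of -1.11 (-1.72 to -0.55). That class held 7 syngeneic barcodes rich in MHC class II genes, which are B cell and antigen-presenting cell genes, and without them the ratio was -0.83 (-1.45 to -0.25). B cells had 29.6 and 58.7 CPM (-0.99, -1.66 to -0.38). Scaled by S100a8 and S100a9, neutrophil RNA would hold 34.8% of the allogeneic Anxa2 UMIs of CD4 T cells. It would hold 47.5% of those of memory-like CD8 T cells and 26.0% of those of B cells. With that amount subtracted the Anxa2 ratio in CD4 T cells was -0.34. In Foxp3+ T cells, 42 and 60.02 CPM rested on 14 and 43 UMIs, and the interval of the ratio ran from -1.5 to 0.38.

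Vim, the intermediate filament of mobile cells, and Crip1, a small LIM-domain protein, differed by less than 2-fold in CD4 and CD8 T cells and were lower in the allogeneic library in B cells. Vim stood at 258 and 314 CPM in CD4 T cells (log2 ratio -0.28, -0.49 to -0.08), at 313 and 244 CPM in memory-like CD8 T cells (0.36, 0.21 to 0.51) and at 564 and 579 CPM in Foxp3+ T cells (-0.04, -0.29 to 0.21). In B cells it had 76.4 and 176 CPM (-1.20, -1.60 to -0.83). Crip1 had 264 and 278 CPM in CD4 T cells (-0.08, -0.28 to 0.13) but 280 and 829 CPM in B cells (-1.57, -1.77 to -1.37). Type 17 T cells had 1049 and 3058 CPM of Crip1 (-1.54, -1.74 to -1.35), and -1.19 (-1.39 to -0.99) without the 7 MHC class II-rich barcodes, while the Vim ratio in that class went from -0.78 to -0.26 (-0.54 to 0.02) without them. Without these barcodes 4 of 9 members were at least 2-fold lower in type 17 T cells (5.21% of genes) and 0 at least 2-fold higher (6.86%).

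**Figure D2:**
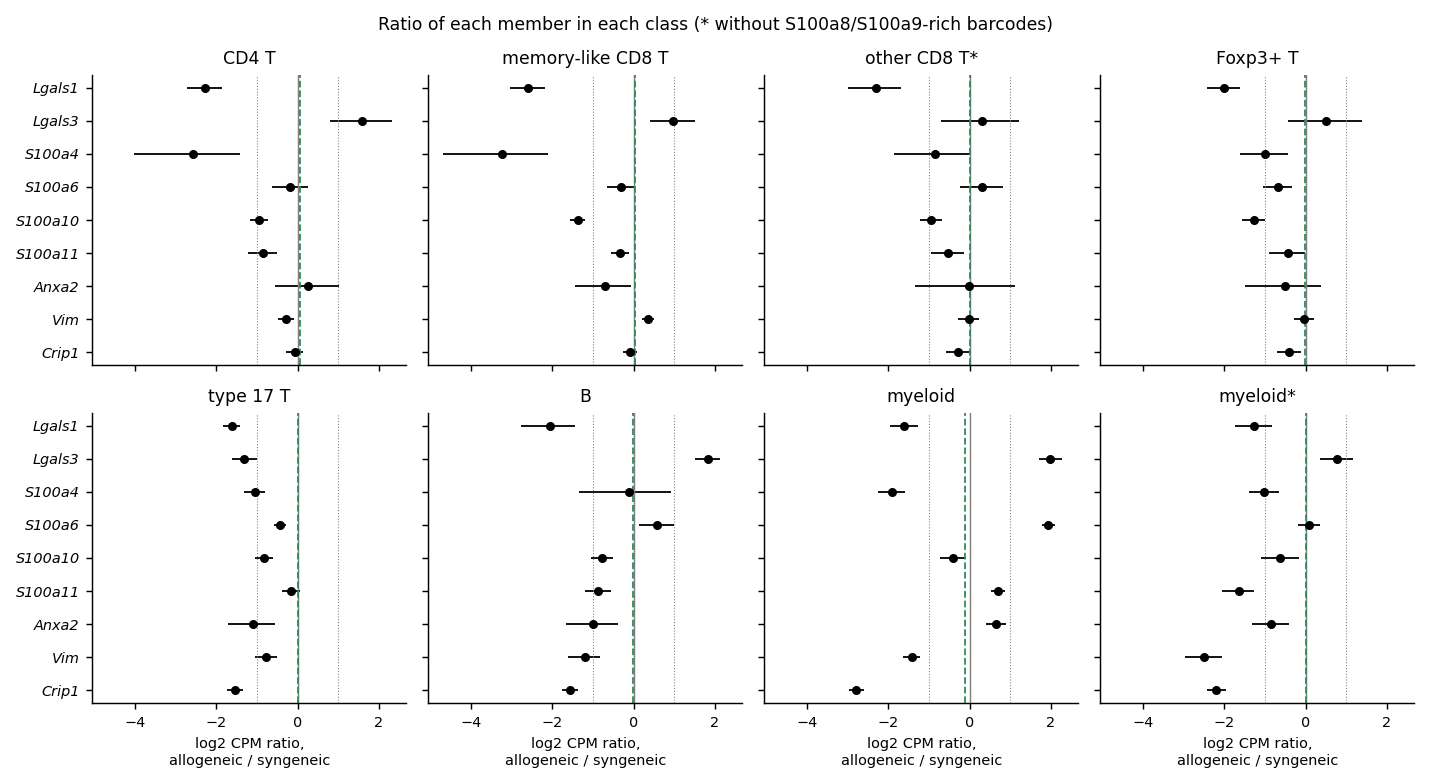
Log2 CPM ratio of each member, allogeneic over syngeneic, with exact 95% counting intervals, in 7 classes and in the myeloid class without S100a8/S100a9-rich barcodes (the other CD8 T class is drawn without them only). Grey lines mark 0 and, dotted, 2-fold either way, and the green dashed line is the median of all genes with at least 50 UMIs. Lgals1 lies left of the dotted line in every panel, and Lgals3, S100a6, S100a11 and Anxa2 move left in the myeloid class once the rich barcodes are left out.

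Counted per class against a 2-fold difference, the members lower in the allogeneic library were 2 of 9 in CD4 T cells (Lgals1 and S100a4), where 4.06% of the 7307 genes with at least 50 UMIs were as low, and 3 of 9 in memory-like CD8 T cells (background 4.58%). Foxp3+ T cells had 3 of the 8 members with enough UMIs (4.08%), type 17 T cells 5 of 9 (6.05%) and B cells 3 of 9, Lgals1, Vim and Crip1 (8.37%). In the other direction, Lgals3 alone was at least 2-fold higher in CD4 T cells (6.79% of genes) and in B cells (7.53%), and no member was in memory-like CD8 T (5.98%), Foxp3+ T (5.96%) or type 17 T cells (7.35%). The median member ratio was -0.28 in CD4 T cells, -0.33 in memory-like CD8 T cells, -0.51 over the 8 members of Foxp3+ T cells, -1.06 in type 17 T cells and -0.87 in B cells, beside medians of all genes between -0.02 and 0.07. Since the members were chosen with these contrasts known, nothing is read from these counts.

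Other CD8 T cells need their own account, because 2 of the 170 allogeneic barcodes were rich in S100a8 and S100a9. With them, 2 members were at least 2-fold lower (4.48% of genes) and 4 at least 2-fold higher (5.91%), namely Lgals3, S100a6 (788 and 58.3 CPM), S100a11 (515 and 167 CPM) and Anxa2 (157 and 15.0 CPM). Without them, Lgals1 alone was at least 2-fold lower, at 40.7 and 201 CPM (log2 ratio -2.31, -2.99 to -1.69; 4.26% of genes), none was at least 2-fold higher (5.82%), and S100a6 stood at 72.2 and 58.3 CPM. S100a10 had 228 and 436 CPM (-0.94, -1.22 to -0.67) there. Lgals1 was thus close to its memory-like CD8 T levels in both libraries.

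Myeloid cells had the highest levels of S100a6, S100a11 and Anxa2 in the allogeneic library, and these belonged mostly to its 12 S100a8/S100a9-rich barcodes. With all cells S100a6 stood at 5374 CPM in the allogeneic and 1410 CPM in the syngeneic library (log2 ratio 1.93), Lgals3 at 1881 and 476 CPM (1.98), S100a11 at 2813 and 1736 CPM (0.70), and Anxa2 at 1344 and 857 CPM (0.65). Without those barcodes S100a6 had 1490 CPM (0.08, -0.19 to 0.34), Lgals3 808 CPM (0.76, 0.36 to 1.16), S100a11 557 CPM (-1.64, -2.05 to -1.26) and Anxa2 476 CPM (-0.85, -1.31 to -0.42). The direction of S100a11 and Anxa2 in myeloid cells therefore depended on 12 barcodes. Crip1 was lower in the allogeneic library either way, at 1001 CPM with them and 1508 CPM without them against 6915 CPM (-2.79 and -2.20), as was Vim (-1.43 and -2.50). At least 2-fold lower were 4 of 9 members (14.7% of genes), and 5 of 9 without the rich barcodes (10.9%), and at least 2-fold higher were 2 (16.1%) and 0 (9.67%).

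Summing over all kept cells hides these patterns. S100a6 was at 852 CPM in the allogeneic and 210 CPM in the syngeneic library as a whole, 4.05-fold higher, although it was lower or within its interval of level in CD4, memory-like CD8, Foxp3+ and type 17 T cells. The 30 S100a8/S100a9-rich allogeneic barcodes held 4820 of its 6544 UMIs, 1251 of 2143 Lgals3 UMIs, 2509 of 3883 S100a11 UMIs and 888 of 1257 Anxa2 UMIs. They held 73 of 1017 Lgals1 UMIs and 34 of 553 S100a4 UMIs.

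CD4 T cells were split by memory-like markers that include no member. Memory-like cells were 45 (17.4%, 13 to 22.6%) of allogeneic and 210 (20.4%, 18 to 23%) of syngeneic CD4 T cells. In them Lgals1 had 125 and 561 CPM (log2 ratio -2.17, -2.83 to -1.57), and in the other CD4 T cells 37.0 and 173 CPM (-2.23, -2.85 to -1.66). The 2 ratios were close, but the memory-like one rests on 23 allogeneic UMIs, 47.8% of them in 1 cell. Of the 670 syngeneic UMIs, 30 of the 210 cells held 75.2%. After thinning, Lgals1 was seen in 4.55% (0.555 to 15.5%) of allogeneic and 20% (14.8 to 26.1%) of syngeneic memory-like cells, whose intervals overlap. Of the 200 S100a4 UMIs of syngeneic CD4 T cells, 165 were in memory-like cells, at 138 CPM against 9.26 CPM in the other cells, whereas the 45 allogeneic memory-like cells had no S100a4 UMI and the other allogeneic CD4 T cells 8.54 CPM. However, 14 of the 210 syngeneic memory-like cells held 84.8% of those 165 UMIs. After thinning, S100a4 was seen in 0 of 44 allogeneic memory-like cells, which allows a share of up to 8.04%, and in 6.67% (3.69 to 10.9%) of the syngeneic ones, so a difference in the share was not detectable at this depth. S100a11 also stood lower in allogeneic memory-like cells, at 76.2 and 269 CPM (-1.82, -2.71 to -1.05), with 85.4 and 113 CPM in the other CD4 T cells (-0.40, -0.81 to -0.01). In memory-like cells 3 of the 8 members with enough UMIs were at least 2-fold lower (8.08% of genes) and 0 at least 2-fold higher (6.0%). In the other CD4 T cells 1 of 6 was at least 2-fold lower (4.13%) and 1, S100a6, at least 2-fold higher at 38.4 and 19.0 CPM (7.07%). S100a8 and S100a9 stood at 602 and 371 CPM in these allogeneic cells. The S100a8/S100a9-rich barcodes had 40.9 S100a6 UMIs per 1000 UMIs of S100a8 and S100a9. The part of neutrophil RNA in this S100a6 value was not tested. Allogeneic memory-like cells held 183827 UMIs in all, so single members there rest on few counts.

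Memory-like CD8 T cells were split by Ccl5 in the same way, a split chosen after seeing the data. Cells with at least 2 Ccl5 UMIs were 41 (13.9%) of the allogeneic and 349 (18.9%) of the syngeneic class. S100a4 had no UMI in the 41 allogeneic cells and 165 UMIs (74.3 CPM) in the 349 syngeneic cells, 9 of which held 83.6% of them. After thinning it was seen in 0 of 41 allogeneic cells, which allows a share of up to 8.60%, and in 4.58% (2.64 to 7.34%) of the syngeneic cells. Lgals1 had 41.5 and 233 CPM in them (log2 ratio -2.49, -3.63 to -1.55) and 32.4 and 197 CPM in the rest (-2.61, -3.11 to -2.15). At least 2-fold lower were Lgals1, S100a4 and S100a10 both in cells with at least 2 Ccl5 UMIs (9.49% of genes) and in the rest (4.46%). At least 2-fold higher were 0 members (6.31%) and 1, Lgals3 (5.89%).

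**Figure D3:**
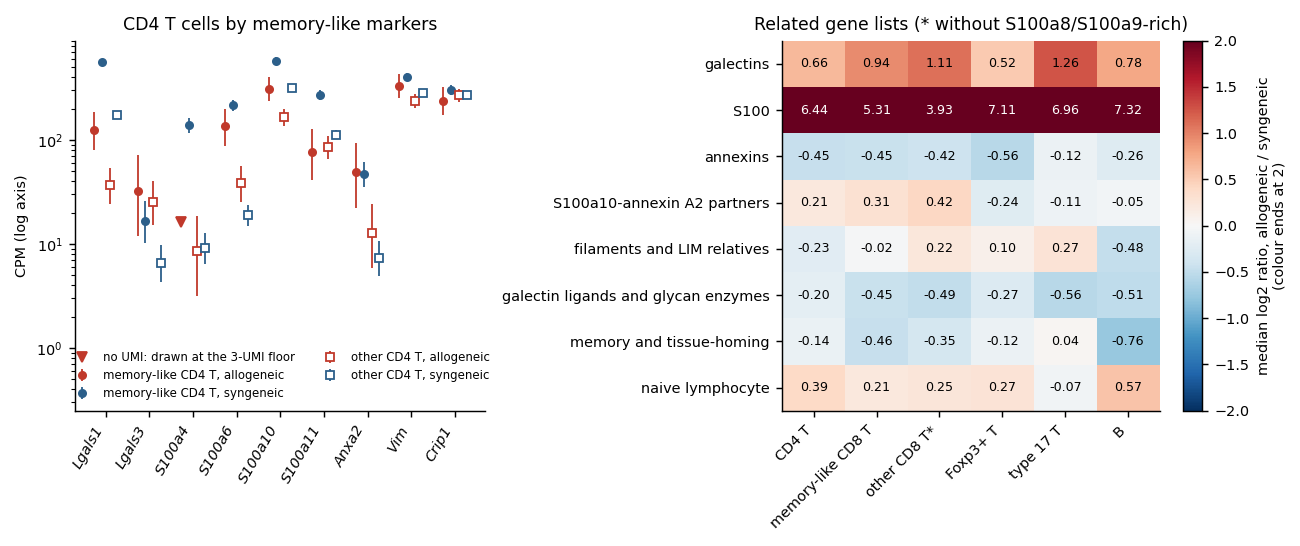
Left, CPM (log axis, exact 95% intervals) of the members in memory-like (filled) and other (open) CD4 T cells of the allogeneic (red) and syngeneic (blue) library; the triangle marks S100a4, with no UMI in allogeneic memory-like cells, at the floor of 3 UMIs. Right, median log2 ratio of 8 lists of related genes in 6 classes over the genes with at least 50 UMIs; the S100 row (3.93 to 7.32) holds S100a8, S100a9 and S100a13 only.

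How many members a cell showed was counted after thinning each cell to 1000 UMIs. At least 4 of the 9 were seen in 0 of 252 allogeneic CD4 T cells (upper limit 1.45%) and in 2.53% (1.66 to 3.68%) of syngeneic CD4 T cells. In memory-like CD8 T cells the shares were 0.678% and 2.11%, and in B cells 1.67% (0.543 to 3.85%) and 2.50% (1.53 to 3.83%), whose intervals overlap. Type 17 T cells stood far above the other lymphocytes in both libraries, with 54.8% (38.7 to 70.2%) of its 42 allogeneic barcodes and 66.0% (55.7 to 75.3%) of its 97 syngeneic barcodes, and Foxp3+ T cells lay between, with 7.78% (3.18 to 15.4%) and 11.9% (6.82 to 18.9%). All 9 members were seen together in 5.15% of the 97 syngeneic and 0 of the 42 allogeneic type 17 T cells. Of myeloid cells 18 of 36 and 36 of 42 showed at least 4, where 43 of the 79 allogeneic cells were too shallow to be thinned and 12 of the 36 were S100a8/S100a9-rich. Without the rich barcodes 9 of 24 allogeneic myeloid cells did. Unthinned, at least 4 were seen in 10.5% and 37.3% of CD4 T cells, with the gap in depth included.

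**Figure D4:**
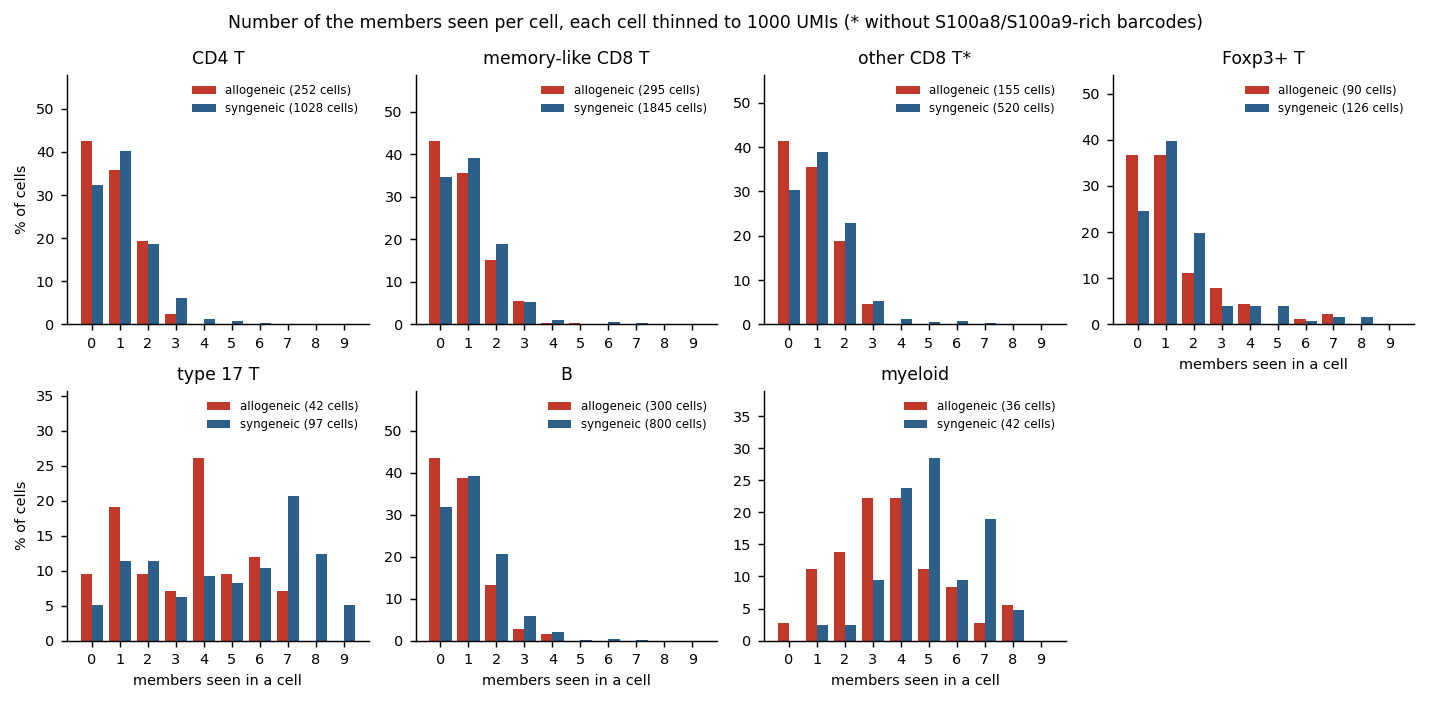
Share of cells (%) by the number of the 9 members seen, each cell thinned to 1000 UMIs, in the allogeneic (red) and syngeneic (blue) library, with the other CD8 T class without its 2 rich barcodes. CD4 T, CD8 T and B cells pile up at 0 and 1 in both libraries, with more cells at 0 in red (42.5% against 32.3% in CD4 T cells), while type 17 T and myeloid cells reach 4 and more.

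Genes of the same families did not all share the members' ratios. Of 8 further galectin genes on the list, 7 are in the files and 3 had enough UMIs in CD4 T, memory-like CD8 T and B cells. Lgals3bp, a secreted galectin-binding glycoprotein, was the one at least 2-fold higher in these classes (6.79%, 5.98% and 7.53% of all genes). It stood at 85.7 and 30.6 CPM in CD4 T cells (log2 ratio 1.49) and 39.4 and 6.90 CPM in B cells (2.51). Lgals9 had 117 and 97.3 CPM in CD4 T cells (0.27). S100a13 had lower values in the allogeneic library, as S100a10 did: 82.3 and 143 CPM in CD4 T cells (-0.79) and 37.0 and 88.5 CPM in B cells (-1.26). Of 11 annexins on the list, Anxa5, which binds phosphatidylserine, was at 59.8 and 93.7 CPM in CD4 T cells (-0.65) and 13.5 and 39.2 CPM in B cells (-1.53), and Anxa11 was higher at 102 and 53.1 CPM in CD4 T cells (0.94). In CD4 T cells no annexin of the 4 with enough UMIs passed 2-fold in either direction, and the median of these was -0.45.

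Among the memory and tissue-homing genes, 1 of 12 was at least 2-fold lower in CD4 T cells, the actin-binding Tagln2 at 117 and 255 CPM (log2 ratio -1.12; 4.06% of all genes), and 6 of 13 in B cells (8.37% of all genes), with list medians of -0.14 and -0.76. Emp3, a small membrane protein of memory lymphocytes, was at 220 and 390 CPM in CD4 T cells (-0.83) and 60.4 and 150 CPM in B cells (-1.32). Among 8 naive lymphocyte genes, Il7r, the survival receptor of resting T cells, was at least 2-fold higher in CD4 T cells at 664 and 263 CPM (1.34; 6.79% of all genes), Ccr7, the lymph node homing receptor, had 547 and 353 CPM (0.63), and the list median was 0.39. Of 10 galectin ligands and glycan enzymes, none of the 7 with enough UMIs passed 2-fold in CD4 T cells. In B cells 3 of 7 were at least 2-fold lower (8.37% of all genes), among them Ptprc at 250 and 713 CPM (-1.51). Neither the S100a10-annexin A2 partners (0 of 3 in either direction, median 0.21) nor the filament and LIM relatives (0 of 3, median -0.23) passed 2-fold in CD4 T cells.

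Across the 14 sums of class and library, the members fell into pairs of like pattern, given as a description because sums of a library share its depth and its free RNA. The allogeneic other CD8 T and myeloid sums also include their S100a8/S100a9-rich barcodes, whose part in these values was not tested. Pearson's r of log2(CPM + 10) was 0.98 for Lgals1 with S100a10, 0.95 for S100a11 with Anxa2, 0.94 for S100a6 with S100a11 and 0.92 for Lgals1 with S100a4. S100a10 and its protein partner Anxa2 were less alike (0.50), and Lgals1 and Lgals3 least (0.45). Of 6290 genes compared with the mean of the members, the closest were Ssr3 (0.96), Cd44, the hyaluronan receptor of memory cells (0.95), Fam129a (0.95), Dkkl1 (0.94), Tmem176b (0.94), Rab8b (0.94), Tmem176a (0.94), Prr13 (0.93), Tbc1d8 (0.93) and Myo1f (0.92). Tmem176a and Tmem176b are markers of the type 17 gate, so their likeness is partly built in.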

How the data were processed

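Lymph node immune cells were measured in 2 single-cell libraries, 1 allogeneic and 1 syngeneic. The authors deposited raw UMI counts per gene and barcode, whole numbers with no normalization, per the file headers and values. Per the submitters' processing notes, the tools were Seurat 2.3.4, STAR and Cell Ranger 2.2.0, with mm10 as genome build. The sources used here do not say how barcodes were chosen or how reads shared with near-identical copies were counted. Pseudogenes of Lgals1 and S100a11 are listed in RefSeq.

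Barcodes were kept from 200 genes upward and up to 10% of mitochondrial UMIs, and gated on marker UMIs that include no member (at least 2 Cd3 UMIs for T, 3 B cell marker UMIs for B, 5 myeloid marker UMIs for myeloid, at most 1 of another lineage). No doublet caller was run. The gates left out barcodes of mixed lineage by the gate markers only, which include neither MHC class II genes nor S100a8 and S100a9. Barcodes rich in these genes stayed in, among them 7 in syngeneic type 17 T cells (MHC class II) and 2 in allogeneic other CD8 T cells (S100a8/S100a9). UMIs were summed per class and library and divided by the class total. Ratios have exact conditional binomial, levels exact Poisson and shares Clopper-Pearson 95% intervals, with Python 3.11.15 and scipy 1.17.1. With 1 library a group there is no test and no p-value. Genes needed 50 UMIs over both libraries to be counted, and a count of 0 was set to a floor of 3 UMIs. S100a8/S100a9-rich barcodes have at least 5% of their UMIs in these genes, and MHC class II-rich T barcodes at least 1%. The ratio and its interval were tested on simulated independent counts only. That setting leaves out the clustering of UMIs in few cells seen here, so it cannot show how the intervals hold under clustering. The members and lists were chosen with earlier results of these data known. Named are all members, up to 4 genes of each list with the highest CPM, of which part is described, and the 10 genes closest in pattern. Alternatives for depth, filters, gates and free RNA are given in the closing section.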

Additional observations from a re-analysis of the deposited data

Results flagged for a closer look

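Lgals3 and Anxa2 had ratios in opposite directions in different classes, a difference between classes that was not tested. The log2 ratio of Lgals3 (allogeneic over syngeneic) was -1.31 in type 17 T cells and 1.58 in CD4 T, 3.41 in other CD8 T, 1.82 in B and 1.98 in myeloid cells. The log2 ratio of Anxa2 was -1.11 in type 17 T cells and 3.39 in other CD8 T cells. Without the S100a8/S100a9-rich barcodes the other CD8 T values were 0.30 for Lgals3 and -0.02 for Anxa2, and the myeloid value of Lgals3 was 0.76.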

How the results depend on the processing

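No paired analysis was possible because each group is 1 library, and for the same reason no library could be left out. Over 846 member ratios under alternative settings, 676 stayed within their counting interval, 163 moved out of it and 7, counted for members at least 2-fold apart in the values of the report, changed direction. Lgals1 was at least 2-fold lower under all 14 settings in CD4 T, memory-like CD8 T, Foxp3+ T and type 17 T cells, all 13 in other CD8 T and B cells and 11 of 12 in myeloid cells, and Lgals3 was higher in B cells under all 13 (1.51 to 1.87). These 7 were the ratios of S100a11 in other CD8 T cells, which was -0.055 with each cell thinned to 1000 UMIs, -0.27 with stricter gates, -0.55 without the 5% of cells with most UMIs and -0.54 without S100a8/S100a9-rich barcodes, of Anxa2 there (-0.052 and -0.019 under the last 2), and of S100a6 in myeloid cells (-0.41 without the 5% of cells with most UMIs). Ratios under 2-fold took the other sign 39 times. Among them were S100a11 in myeloid cells (0.70, down to -1.64, lower under 3 of 12 settings) and Anxa2 there (0.65, down to -0.92, lower under 4 of 12). S100a6 in B cells (0.58, from -2.53 to 1.53), S100a4 in B cells (-0.12, up to 2.41) and S100a6 in CD4 T cells (-0.18, from -2.21 to 0.66) did so too. The settings without S100a8/S100a9-rich, MHC class II-rich or shared barcodes and with neutrophil RNA subtracted were chosen after seeing the data. Members were counted as lower at 2-fold, except where a cut of 1.5-fold is named. Their number went from 2 to 4 in CD4 T cells with thinning, with free RNA or neutrophil RNA subtracted in both libraries and at 1.5-fold. It went from 3 to 5 in memory-like CD8 T cells with either subtraction, and from 2 to 1 in other CD8 T cells with thinning, without the 5% of cells with most UMIs, with mean CPM over cells and without S100a8/S100a9-rich barcodes. In Foxp3+ T cells it went from 3 to 1 with cells of at least the lowest syngeneic UMI total and to 6 with stricter gates. It went from 5 to 8 in type 17 T cells with free RNA subtracted, where the MHC class II-rich barcodes put the syngeneic free RNA estimate at 50.1%, and from 3 to 6 in B cells with free RNA subtracted and at 1.5-fold and to 5 with neutrophil RNA subtracted. Neutrophil RNA was not subtracted from other CD8 T cells, where the estimate exceeded the S100a6 UMIs (134%), nor from myeloid cells. The cause of these moves was not tested. The share of all genes called under each setting is not given here, so nothing about the members is read from these counts. Depth limits S100a4 and Anxa2 most, with 6 and 18 UMIs in allogeneic CD4 T cells.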

Other observations

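T cells in none of the narrower gates, 458 allogeneic and 1413 syngeneic cells, had Lgals1 at 142 and 331 CPM (log2 ratio -1.22, -1.42 to -1.02) and S100a10 at 296 and 438 CPM (-0.56, -0.70 to -0.42). S100a6 stood at 245 and 76.0 CPM (1.69, 1.5 to 1.87) and Lgals3 at 60.4 and 27.4 CPM (1.14, 0.78 to 1.49). S100a8, the neutrophil gene, was at 1889 CPM in these allogeneic cells and 3.15 CPM in the syngeneic cells, and 1 allogeneic barcode was S100a8/S100a9-rich, whose part in these values was not tested.

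Anxa1, the partner of S100a11, was at 26.6 and 2.67 CPM in memory-like CD8 T cells and at 38.2 and 17.8 CPM in B cells. Neutrophil RNA, scaled by S100a8 and S100a9, would give 29.9 CPM of it in allogeneic memory-like CD8 T cells, 112% of the measured level, and 33.7 CPM in allogeneic B cells, 88.3% of it. In type 17 T cells, where the members are highest among lymphocytes, it was at 94.96 and 102 CPM (log2 ratio -0.10), and the same scaling would hold 33.9% of the allogeneic level. Myeloid cells held 2810 and 150 CPM (4.22) with the S100a8/S100a9-rich barcodes included, and 287 and 150 CPM (0.93, 0.23 to 1.63) without them.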
